A study of Mus musculus with 9 samples.

Results

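Among the 35275 genes of the deposited table, 10 that encode Id proteins or intracellular or membrane-bound feedback regulators of TGF-beta and BMP signalling are described here. They are Id1, Id2, Id3, Id4, Smad6, Smad7, Ski, Skil, Tgif1 and Bambi, and other regulators such as Pmepa1 stand in lists below. The 10 were chosen by gene symbol with earlier results of these data known, and each was found once. They were measured by RNA-seq of poly(A) RNA from mouse embryonic fibroblasts (MEFs), connective tissue cells of the embryo, of strain C57Bl/6. The cells were wild type in all groups and grew in DMEM with serum. Control MEFs stayed in iso-osmolar medium, and the others received 200 mM sucrose (500 mOsm in total, low-intensity hyperosmotic stress) or 300 mM sucrose (600 mOsm in total, high-intensity stress) for 3 h. Each treatment had 3 libraries, 9 in all, and the labels do not say whether they came from separate cultures, so that p-values measure the spread between these libraries, which may be technical.

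TGF-beta and BMP ligands bind pairs of serine/threonine kinase receptors, which phosphorylate receptor-regulated Smads that enter the nucleus with Smad4. Among the genes that these Smads switch on early are inhibitors of the same pathway and, after BMP, the Id genes, whose proteins bind the basic helix-loop-helix (bHLH) E proteins and keep them off DNA. In fibroblasts the TGF-beta branch is known for control of matrix genes and the BMP branch for Id expression.

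The libraries held between 21716042 and 26740832 counts on genes, at which 3 counts correspond to 0.113 to 0.137 CPM (counts scaled to a common depth). Of the MEF markers examined, 9 of 10 were above 1 FPKM (fragments per length and depth) in every library, with Vim at 1655 FPKM or more, whereas Dcn stayed at or under 0.059. Each of the 5 epithelial markers stayed under 1 FPKM, but their sum was 0.0317 to 0.237 in control, 1.08 to 1.49 at 500 mOsm and 0.117 to 0.275 at 600 mOsm, highest at 500 mOsm without overlap. All 5 skeletal muscle markers stayed under 1 FPKM, with sums of 0.0136 to 0.0622, 0.0719 to 0.165 and 0.0373 to 0.130. Of the endothelial markers, 4 of 5 stayed under 1 FPKM and Pecam1 reached 3.52, so that their summed level was 0.202 to 0.246 in control, 3.36 to 3.84 at 500 mOsm and 0.577 to 0.901 at 600 mOsm. Of the 4 macrophage and leukocyte markers in the table, 2 were above 1 FPKM in every library, Csf1r at 2.02 to 3.26 and Lyz2 at 2.55 to 14.8. Cd68 reached 1.54 FPKM, and Ptprc stayed at or under 0.0505. The sum of the 4 was 6.12 to 9.77, 8.22 to 19.1 and 8.15 to 17.2 in the same order. The part of these markers in the results on the Id genes was not tested.

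Sequence before a RefSeq start site is shown for 3 members called higher at 500 mOsm, to place the Smad-type motifs known from BMP and TGF-beta responsive promoters beside their values. The call of Smad6 was lost under some alternatives. Positions are those of GRCm38 (mm10). RefSeq windows on GRCm38.p6 were at hand for 6 of the 10 members, and the stretches below are those parts of the 250 bases before the start site that lie in no annotated exon. All 3 genes are on the minus strand and are written 5′ to 3′ on that strand, with motifs in capitals. These are GGCGCC, known from BMP responsive genes, the related element GGAGCC, which reads as GGCTCC where it lies on the other strand, and the Smad box CAGAC. The Id2 stretch is chr12:25096254-25096342, the Smad6 stretch chr9:64022060-64022309 and the Tgif1 stretch chr17:70853547-70853766, the last upstream of the most distal of its 5 RefSeq starts. In the GENCODE M21 annotation Id2 extends to chr12:25097140, so the Id2 stretch lies within that longer gene, outside its exons.
Id2: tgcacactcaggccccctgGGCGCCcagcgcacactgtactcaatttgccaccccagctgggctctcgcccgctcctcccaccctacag
Smad6: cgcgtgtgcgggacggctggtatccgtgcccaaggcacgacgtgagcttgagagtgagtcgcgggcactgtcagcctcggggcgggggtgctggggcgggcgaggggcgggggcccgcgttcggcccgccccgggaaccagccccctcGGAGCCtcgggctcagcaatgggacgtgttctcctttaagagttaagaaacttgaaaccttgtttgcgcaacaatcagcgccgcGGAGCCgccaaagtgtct
Tgif1: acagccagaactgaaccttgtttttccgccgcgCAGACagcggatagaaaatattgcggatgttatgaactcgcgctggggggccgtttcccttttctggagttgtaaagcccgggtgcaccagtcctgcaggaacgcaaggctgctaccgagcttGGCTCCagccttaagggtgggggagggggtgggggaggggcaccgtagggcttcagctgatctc

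The motif GGCGCC began 231 bases before the start of Id2 and was also found 220 bases before that of Ski and 148 before that of Id4. Searched on both strands of the 250 bases before the start, it was present in 9.59% of 32851 RefSeq windows, which leave out chromosome 18. These windows were not matched to those of the members in GC content. GGAGCC began 102 and 18 bases before the start of Smad6 and 78 before that of Tgif1, was also found before the starts of Id2, Id3, Id4 and Ski, and was held by 26.0% of the windows. CAGAC began 201 bases before the same start of Tgif1 and 167 and 68 before that of Id3, and 42.2% of the windows held it. The RefSeq window of Id3, chr4:136143572-136143871, lies inside the Id3 gene as placed below. Its GGAGCC and CAGAC matches are therefore within the gene and not upstream of it. The GGAGCC of Id2, 88 bases before its RefSeq start, lies outside the stretch shown and inside the longer GENCODE gene. The 3 motifs do not overlap in the stretches shown, and a match is a description of the letters and not of a bound site.

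At 500 mOsm, 7 of the 9 members with enough counts to test were higher than in control and 1 was lower, while Ski did not pass the test. The median log2 fold change of the 9 was 1.05, beside 0.01 over all 13082 genes tested. By edgeR's quasi-likelihood test at an adjusted p under 0.05, 28.0% of all genes were called in this comparison, 13.2% higher and 14.8% lower. The libraries of 6 members stood wholly above control, as did those of 20.1% of all genes, and those of 1 wholly below, as did 20.8%. At 600 mOsm, 3 members were higher than in control and 5 lower, with a median of −0.31 beside 0.01 over all genes, and 35.1% of all genes were called, 15.1% higher and 20.0% lower. Without overlap 3 members were above control and 5 below, beside 23.0% and 25.5% of all genes. Between the intensities, 7 members were lower at 600 than at 500 mOsm and 0 higher, with a median of −0.91 beside 0.01, and 29.1% of all genes were called, 11.9% higher and 17.2% lower. Without overlap 1 member was above and 7 below, beside 19.2% and 22.3% of all genes. The member nearest to a rise between the intensities was Smad6, the 1 member with an unadjusted p under 0.05 in that direction, and DESeq2 also called 0. The first 2 comparisons share the control libraries. The members were chosen with earlier results known, and their counts were not tested against the shares of all genes. In bulk RNA, fewer cells of a kind and less RNA per cell cannot be told apart.

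**Figure D1:**
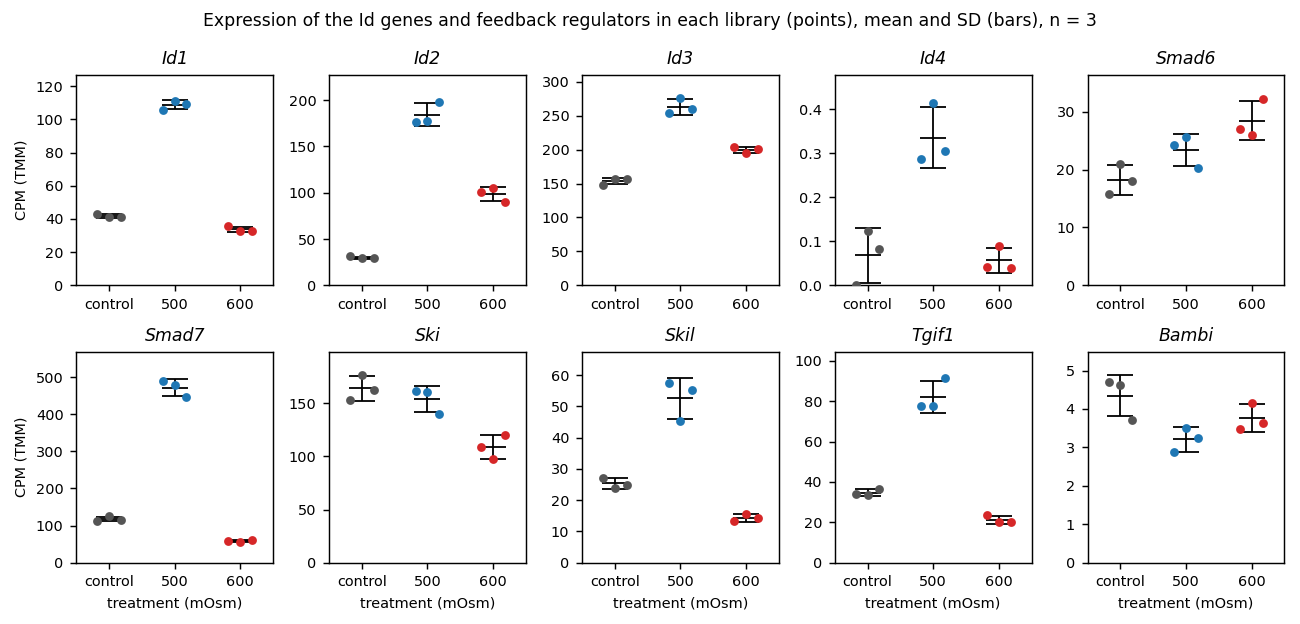
Expression of the 10 genes in each library in CPM on linear axes that start at 0, for control, 500 mOsm and 600 mOsm, with points for libraries and bars for the mean and SD of 3. Smad7 stood between 446 and 491 CPM at 500 mOsm and between 55.6 and 61.5 at 600 mOsm, on either side of control.

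**Figure D2:**
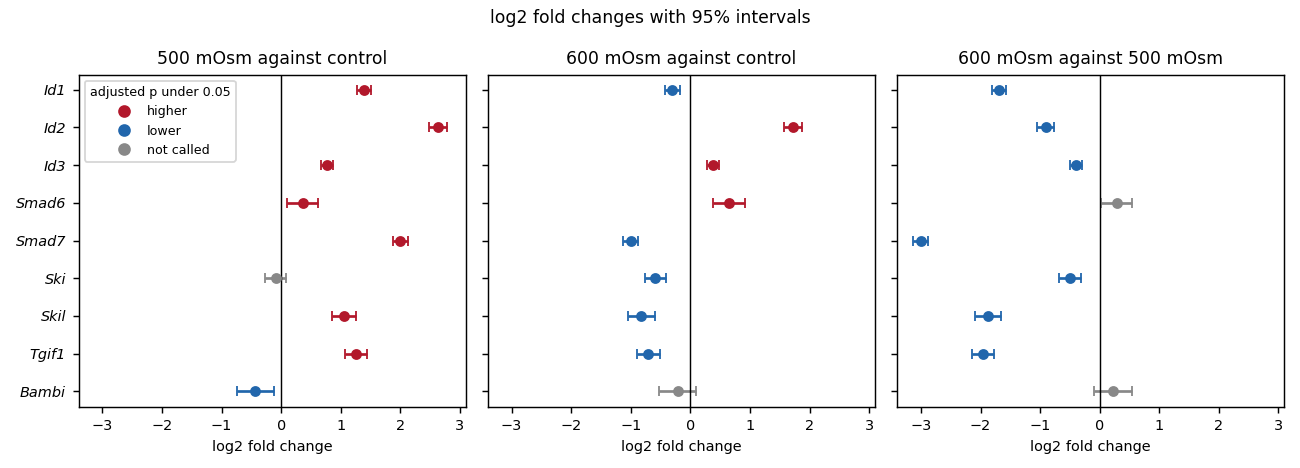
Fitted log2 fold changes of the 9 genes tested, with 95% intervals, in each of the 3 comparisons, coloured by the call at an adjusted p under 0.05. Id2, Id3 and Smad6 were called higher than control at both intensities, and Id1, Smad7, Skil and Tgif1 were higher at 500 and lower at 600 mOsm. The Smad6 libraries overlapped control at 500 mOsm, and that call was lost under some alternatives.

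Id1 (ENSMUSG00000042745, chr2:152736251-152737410, plus strand) encodes an inhibitor of bHLH factors and is a standard early BMP target. Its expression was 43.0, 41.0 and 41.1 CPM in the control libraries, 106, 111 and 109 at 500 mOsm, and 35.6, 32.7 and 32.9 at 600 mOsm. The 3 treatments did not overlap, with 500 mOsm highest and 600 mOsm lowest. The log2 fold change was 1.38 (SE 0.054, adjusted p = 2.02e-09) at 500 mOsm. At 600 mOsm it was −0.31 (SE 0.056, adjusted p = 0.00118). Between the intensities it was −1.69 (SE 0.055, adjusted p = 3.88e-10), that is 3.22-fold lower at 600 mOsm.

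Id2 (ENSMUSG00000020644, chr12:25093801-25096092, minus strand), which like Id1 sequesters E proteins, showed the largest rise of the members over control at both intensities. It stood at 31.3, 29.2 and 29.2 CPM in control, at 177, 177 and 199 at 500 mOsm and at 100, 105 and 90.1 at 600 mOsm. No library of one treatment reached those of another, and 600 mOsm lay between control and 500 mOsm. The rise was 6.17-fold at 500 mOsm (log2 2.63, SE 0.069, adjusted p = 6.07e-11) and 3.30-fold at 600 mOsm (log2 1.72, SE 0.070, adjusted p = 5.33e-09). The level at 600 mOsm was below that at 500 mOsm by −0.91 on the log2 scale (SE 0.066, adjusted p = 7.19e-07).

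Id3 (ENSMUSG00000007872, chr4:136143497-136145755, plus strand), the most abundant member per length in every library, had the same order of treatments as Id2 with smaller steps. Its values were 148, 156 and 157 CPM in control, 254, 276 and 259 at 500 mOsm, and 204, 195 and 200 at 600 mOsm. Again no treatment overlapped another. The log2 fold changes over control were 0.77 (SE 0.048, adjusted p = 1.19e-07) at 500 mOsm and 0.38 (SE 0.048, adjusted p = 6.73e-05) at 600 mOsm, and correcting each library for GC content and length made the latter 0.23. Between the intensities the change was −0.40 (SE 0.047, adjusted p = 4.81e-05).

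Id4 (ENSMUSG00000021379, chr13:48261427-48264036, plus strand), the fourth gene of the family, was close to the limit of detection and did not pass the filter on low counts. It had 0, 3 and 2 counts in control, 7, 11 and 8 at 500 mOsm, and 1, 2 and 1 at 600 mOsm. The 500 mOsm libraries lay above all others, while control and 600 mOsm overlapped at or under 3 counts a library, so that no fold is given between them. From 26 against 5 counts, the depth-adjusted ratio of 500 mOsm to control was 4.76, with a 95% interval of 1.8 to 15.9 that covers counting error only. From 4 against 26 counts, the ratio of 600 to 500 mOsm was 0.163 (0.041 to 0.469). With no filter on low counts, edgeR gave Id4 an adjusted p of 0.0306 at 500 mOsm against control and of 0.0161 between the intensities, over 23419 genes. Of 2258 untested genes with 20 to 60 counts in all, 34.1% had every 500 mOsm library above control and 23.9% had every 600 mOsm library below 500 mOsm. Id4 shares 110 bases of its 1660 with Gm49291, and where its reads fall was not tested. It overlaps A330033J07Rik on the opposite strand, which had at most 1 count.

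Per length, the Id genes together stood at 181 FPKM ± 2.19 (SD, n = 3) in control, 446 ± 14.5 at 500 mOsm and 261 ± 10.0 at 600 mOsm. Their make-up differed as well as their sum. Id3 was 66.9% ± 1.40 of the sum in control, 46.3% ± 1.54 at 500 mOsm and 59.5% ± 1.61 at 600 mOsm. Id2 went from 13.1% ± 0.669 of the sum in control to 32.6% ± 1.77 and 29.5% ± 1.77. Id1 was 20.0% ± 0.748, 21.1% ± 0.260 and 11.1% ± 0.348, so that its share was lowest in the 600 mOsm libraries. The E protein genes Tcf3, Tcf4 and Tcf12, whose products the Id proteins bind, summed to 166 ± 14.4 FPKM, 188 ± 19.0 and 192 ± 22.9. The ratio of Id to E protein FPKM was 1.09 ± 0.097 in control, 2.39 ± 0.315 at 500 mOsm and 1.37 ± 0.204 at 600 mOsm, and the control and 600 mOsm libraries overlapped in it. These sums and ratios were not tested.

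**Figure D3:**
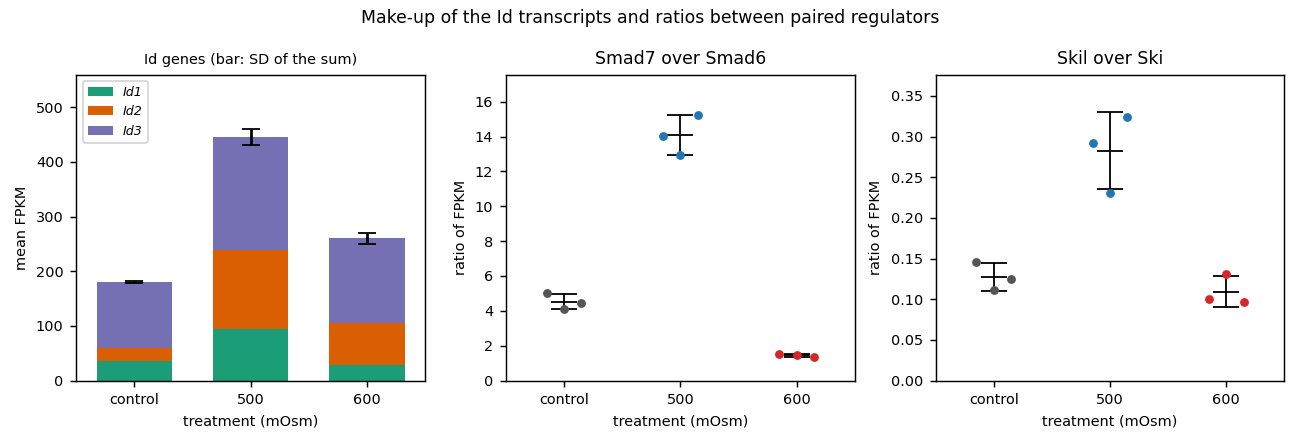
Left, mean FPKM of Id1, Id2 and Id3 stacked for each treatment, with the SD of the summed Id genes. Middle and right, ratios of FPKM between Smad7 and Smad6 and between Skil and Ski in each library, with mean and SD, n = 3. The Id sum was 446 FPKM at 500 mOsm, and Smad7 over Smad6 was 14.1 at 500 mOsm and 1.44 at 600 mOsm.

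The inhibitory Smads differed from each other. Smad7 (ENSMUSG00000025880, chr18:75367529-75395935, plus strand), which binds activated type I receptors and brings ubiquitin ligases to them, was at 113, 125 and 116 CPM in control. It reached 491, 479 and 446 CPM at 500 mOsm and was at 59.4, 55.6 and 61.5 at 600 mOsm, with no overlap between treatments. Smad7 was 4.0-fold higher than control at 500 mOsm (log2 2.00, SE 0.056, adjusted p = 8.95e-11) and 2.00-fold lower at 600 mOsm (log2 −1.0, SE 0.058, adjusted p = 9.74e-08). The difference between the intensities was 8.02-fold (log2 −3.00, SE 0.057, adjusted p = 3.80e-12), and ranked from the most lowered gene Smad7 was number 172 of 13082.

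Smad6 (ENSMUSG00000036867, chr9:63953076-64022059, minus strand), the inhibitory Smad that acts mainly on the BMP branch, was at 15.7, 21 and 18 CPM in control, at 24.3, 25.7 and 20.3 at 500 mOsm and at 27.1, 26.1 and 32.3 at 600 mOsm. Control and 500 mOsm overlapped, and the 600 mOsm libraries lay above all others. Its log2 fold change was 0.64 (SE 0.122, adjusted p = 0.00149) at 600 mOsm. At 500 mOsm it was 0.36 (SE 0.123, adjusted p = 0.0462), the smallest called rise. That call was lost without control replicate 1 or 3, without 500 mOsm replicate 1 or 2, and without 600 mOsm replicate 1, and the adjusted p lay between 0.00300 and 0.170 over the alternatives. Between the intensities the log2 difference was 0.28 (95% interval 0.024 to 0.545) with an adjusted p of 0.0962 and an unadjusted p of 0.0349.

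The ratio of Smad7 to Smad6 FPKM was 4.53 ± 0.439 in control, 14.1 ± 1.15 at 500 mOsm and 1.44 ± 0.105 at 600 mOsm, without overlap. The receptor-regulated Smads of both branches, summed over Smad1, Smad2, Smad3, Smad5 and Smad9, stood at 49.7 ± 2.07 FPKM, 43.4 ± 0.739 and 36.3 ± 1.35. Inhibitory over receptor-regulated Smad FPKM was therefore 0.683 ± 0.065 in control, 2.73 ± 0.171 at 500 mOsm and 0.638 ± 0.061 at 600 mOsm, with control and 600 mOsm overlapping.

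Of the nuclear corepressors, Skil, which encodes SnoN, moved in opposite directions at the 2 intensities, and Ski did not rise. Skil (ENSMUSG00000027660, chr3:31095058-31122577, plus strand) stood at 27.1, 24.0 and 24.8 CPM in control, at 57.3, 45.2 and 55.1 at 500 mOsm and at 13.2, 15.6 and 14.1 at 600 mOsm, with no overlap. Its log2 fold change was 1.05 (SE 0.096, adjusted p = 3.76e-06) at 500 mOsm and −0.82 (SE 0.103, adjusted p = 6.20e-05) at 600 mOsm. The difference between the intensities was −1.88 (SE 0.10, adjusted p = 4.02e-08).

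Ski (ENSMUSG00000029050, chr4:155154075-155222592, minus strand), the relative of SnoN that likewise binds Smads and recruits histone deacetylases, was at 153, 177 and 163 CPM in control and at 161, 161 and 140 at 500 mOsm, which overlapped. It was at 109, 97.9 and 120 CPM at 600 mOsm, below all other libraries. The log2 difference at 500 mOsm was −0.10 (95% interval −0.27 to 0.08, adjusted p = 0.436). At 600 mOsm Ski fell by 0.59 on the log2 scale against control (SE 0.082, adjusted p = 0.000141) and by 0.50 against 500 mOsm (SE 0.082, adjusted p = 0.000595). Skil over Ski in FPKM was 0.127 ± 0.017, 0.283 ± 0.048 and 0.109 ± 0.019 in control, 500 and 600 mOsm, with control and 600 mOsm overlapping. The ratios of Skil to Ski and of the Smads were not tested.

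Tgif1 (ENSMUSG00000047407, chr17:70844205-70853546, minus strand), a homeodomain corepressor that binds Smad2, followed the pattern of Skil. Its values were 33.7, 33.3 and 36.5 CPM in control, 77.6, 77.7 and 91.4 at 500 mOsm, and 23.4, 20.0 and 20.0 at 600 mOsm. The treatments did not overlap. The log2 fold changes were 1.25 (SE 0.082, adjusted p = 2.25e-07) at 500 mOsm, −0.71 (SE 0.087, adjusted p = 5.56e-05) at 600 mOsm and −1.96 (SE 0.085, adjusted p = 6.48e-09) between them.

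Bambi (ENSMUSG00000024232, chr18:3507957-3516404, plus strand), a receptor-like membrane protein without a kinase domain that blocks type I receptors, was low throughout. It was at 4.69, 4.63 and 3.72 CPM in control, at 2.87, 3.51 and 3.24 at 500 mOsm and at 3.47, 4.16 and 3.64 at 600 mOsm. All 500 mOsm libraries lay below the control libraries, and 600 mOsm overlapped both. The log2 fold change at 500 mOsm was −0.44 (SE 0.145, adjusted p = 0.0400), and the call was lost without control replicate 1 or 2, without 500 mOsm replicate 1 or 3 and without 600 mOsm replicate 1, and also with DESeq2 and limma, over an adjusted p of 0.0231 to 0.130. At 600 mOsm the differences were −0.21 against control (95% interval −0.52 to 0.10, adjusted p = 0.280) and 0.22 against 500 mOsm (−0.09 to 0.54, adjusted p = 0.284).

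Per length, Id3 led the members at 121 FPKM ± 3.38 in control, 206 ± 7.60 at 500 mOsm and 155 ± 2.80 at 600 mOsm. In control it was followed by Id1 at 36.1 ± 1.25, by Ski at 29.9 ± 1.84 and Smad7 at 27.7 ± 1.11, which overlapped, and by Id2 at 23.6 ± 1.12. At 500 mOsm the order was Id2 at 146 ± 11, Smad7 at 111 ± 4.84 and Id1 at 94.0 ± 2.20, each apart from the next, and then Ski and Tgif1, which overlapped at 27.9 ± 2.03 and 26.2 ± 2.77. At 600 mOsm Id2 at 76.9 ± 7.20 and Id1 at 28.8 ± 1.44 came next, then Ski at 19.5 ± 1.66 and Smad7 at 13.6 ± 0.445. Smad6, Tgif1 and Skil lay below 12 FPKM in control, and Skil was the lower of the 3 there. Smad6 and Skil overlapped at 500 mOsm, at 7.89 ± 0.869 and 7.85 ± 1.03. Bambi, at 0.637 to 0.866 FPKM on average, and Id4, under 0.25 in every library, were the lowest in each treatment.

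**Figure D4:**
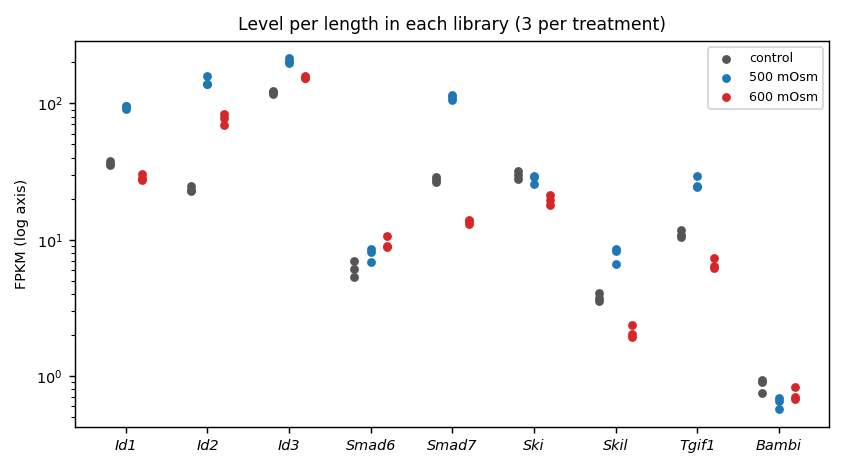
FPKM of 9 of the genes in each library on a log axis, in 3 colours for control, 500 mOsm and 600 mOsm, with Id4 left out because control includes a 0. Id3 was highest in each treatment, and Smad7 moved from 27.7 FPKM on average in control to 111 at 500 mOsm and 13.6 at 600 mOsm.

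Genes with a pattern like that of a member were sought among the 8431 other tested genes whose log2 CPM averaged 3 or more, by the root mean square difference over the 9 libraries in log2 CPM relative to the control mean. Junb was nearest to Id1, at 0.106, and Rsrp1 was at 0.136. Dlx2 was nearest to Smad7, at 0.155, followed by Arc at 0.189 and Tnfaip3 at 0.203. Dlx2, a homeobox gene, was at 15.2, 18.1 and 16.5 CPM in control, 69.4, 68.5 and 65.7 at 500 mOsm and 10.8, 8.46 and 9.82 at 600 mOsm.

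The rest of the pathway was described in lists by role. Of all 13082 genes tested, 13.2% were called higher and 14.8% lower at 500 mOsm. At 600 mOsm the shares were 15.1% and 20.0%, and between the intensities 11.9% and 17.2%. The counts of the lists were not tested against these shares. Where a list had a count of 0 by edgeR, DESeq2 also gave 0, and at an unadjusted p under 0.05 the count was 0 unless a gene is named. Other settings gave some of these lists a count above 0, and each such count stands with its list. Of 21 ligands, 8 were tested, with 2 higher and 2 lower than control at 500 mOsm (median −0.15). At 600 mOsm the counts were 2 and 4 (median −0.24). Between the intensities 1 ligand was lower and 0 higher by edgeR. Bmp4, a BMP ligand that induces Id genes, was at 4.42, 4.06 and 3.93 CPM in control, 12.7, 9.01 and 10.2 at 500 mOsm and 9.0, 9.13 and 8.86 at 600 mOsm. It rose by log2 1.36 (SE 0.133, adjusted p = 6.26e-06) and 1.12 (SE 0.135, adjusted p = 4.38e-05). Tgfb1, which encodes TGF-beta 1, changed by −0.70 at 500 mOsm (SE 0.088, adjusted p = 5.85e-05), and by −0.95 at 600 mOsm (SE 0.089, adjusted p = 5.74e-06). Between the intensities Tgfb2 was lower, by −0.38 (adjusted p = 0.0324). The count of ligands lower at 500 mOsm was 1 without control replicate 3 or 500 mOsm replicate 2 or 3, and that between the intensities was 0 without 500 mOsm replicate 1 or 600 mOsm replicate 1 or 2 and 2 without control replicate 1. The former was also 1 with the replicate block and at an adjusted p under 0.01. The latter was 0 with upper quartile factors, the replicate block or an adjusted p under 0.01, 2 with library size alone and 3 with no filter on low counts.

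Of 17 receptors and co-receptors, 16 were in the table and 14 were tested. By edgeR none of these rose and 4 fell at 500 mOsm, 1 rose and 4 fell at 600 mOsm, and 3 exceeded and 1 lay under their 500 mOsm level at 600 mOsm, with medians of −0.10, −0.17 and 0.01. Acvr1, a type I receptor that serves BMPs, was at 59.9, 55.7 and 57.2 CPM in control, 38.5, 37.5 and 43.1 at 500 mOsm and 15.9, 22.8 and 18.4 at 600 mOsm. It fell by 1.60 on the log2 scale at 600 mOsm (SE 0.106, adjusted p = 2.98e-07). Rgmb, a BMP co-receptor, changed by −1.72 at 500 mOsm (SE 0.120, adjusted p = 3.75e-07). Acvr1b, an activin receptor, changed by −1.12 at 500 mOsm (SE 0.159, adjusted p = 0.000145), from 4.62 CPM on average in control to 2.12. It was 0.80 higher at 600 than at 500 mOsm (SE 0.163, adjusted p = 0.00252), at 3.68 CPM on average. The 3 receptors that exceeded their 500 mOsm level were all among the 4 that fell at 500 mOsm. Each averaged fewer CPM at 600 mOsm than in control. Amhr2 was called higher at 600 mOsm (log2 1.82, adjusted p = 0.00888) at under 1 CPM in every library, and it alone had an unadjusted p under 0.05 for a rise at 500 mOsm. The count of receptors higher was 1 at 500 mOsm without control replicate 2 or 500 mOsm replicate 2, 2 at 600 mOsm without 600 mOsm replicate 1, and 1 between the intensities without 500 mOsm replicate 2 or 600 mOsm replicate 1. At 500 mOsm it was also 1 with upper quartile factors, both limma fits on log2 FPKM and the GC content and length correction. At 600 mOsm it was 2 with upper quartile factors and 0 with at least 10 counts in every library, and between the intensities it was 1 at an adjusted p under 0.01.

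All 6 receptor-regulated and common Smads were tested, and 0 were higher in any comparison by edgeR. At 500 mOsm 3 were lower, at 600 mOsm 4, and between the intensities 4, with medians of −0.14, −0.46 and −0.24. Smad1, a BMP branch Smad, was at 30.1, 28.5 and 28.5 CPM in control, 16, 18.2 and 18.9 at 500 mOsm and 19.2, 16.2 and 17.3 at 600 mOsm. Its log2 fold change at 500 mOsm was −0.71 (SE 0.086, adjusted p = 4.27e-05). Smad9, also of the BMP branch, was at −1.23 (SE 0.108, adjusted p = 3.01e-06) at 600 mOsm and −0.60 (SE 0.110, adjusted p = 0.00130) between the intensities. Of the Smads, 2 were lower between the intensities with the GC content and length correction, with or without the replicate block.

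Of 18 secreted antagonists and latency proteins, 11 were tested. At 500 mOsm 2 were higher and 2 lower, at 600 mOsm 3 higher and 2 lower, and between the intensities 0 higher and 1 lower, with medians of 0.05, 0.00 and −0.06. Grem1, a secreted BMP antagonist, was at 4.92, 5.78 and 8.87 CPM in control, 3.03, 1.92 and 1.87 at 500 mOsm and 2.05, 2.73 and 2.44 at 600 mOsm. It changed by −1.53 (SE 0.243, adjusted p = 0.000347) and −1.44 (SE 0.243, adjusted p = 0.000571). Bmper, a secreted BMP modulator, was 0.39 higher at 500 mOsm (adjusted p = 0.00870), Ltbp4, a latent TGF-beta binding protein, 0.31 higher at 600 mOsm (adjusted p = 0.00997), and Fst, which encodes the activin antagonist follistatin, changed by −0.65 between the intensities (adjusted p = 0.0154). These counts changed with single libraries and with the settings. With each library left out in turn, higher at 500 mOsm was 1 without control replicate 1 or 3, 500 mOsm replicate 1 or 2 or 600 mOsm replicate 1, and lower was 1 without control replicate 2 or 3 or 500 mOsm replicate 1 or 3. At 600 mOsm, higher was 1 without control replicate 1 or 3 or 600 mOsm replicate 1 or 3. Between the intensities, higher was 1 (Ltbp2) at an unadjusted p under 0.05 and 1 without 600 mOsm replicate 2, and lower was 2 without control replicate 3 or 500 mOsm replicate 2 and 0 without 500 mOsm replicate 1. With no filter on low counts 5 were higher at 500 mOsm. The replicate block and an adjusted p under 0.01 each left 1 higher and 1 lower at 500 mOsm and 1 higher at 600 mOsm. Between the intensities, 2 were higher with upper quartile factors or no filter and 3 with the GC content and length correction, with or without the block. In the other direction, 3 were lower with library size alone or at least 10 counts in every library, 2 with both limma fits and the GC content and length correction, with or without the block, and 0 at an adjusted p under 0.01.

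All 24 intracellular modulators of Smad signalling were tested, with 2 higher and 3 lower at 500 mOsm, 2 higher and 11 lower at 600 mOsm, and 1 higher and 10 lower between the intensities, with medians of −0.03, −0.17 and −0.15. Tob1, an antiproliferative protein that binds BMP Smads, rose stepwise, from 17.3, 16.1 and 15.3 CPM in control to 30.1, 27.9 and 30.1 at 500 mOsm and 48.6, 54.6 and 49.4 at 600 mOsm. Its log2 fold changes were 0.86 (SE 0.076, adjusted p = 2.74e-06), 1.65 (SE 0.075, adjusted p = 1.21e-08) and, between the intensities, 0.79 (SE 0.072, adjusted p = 4.61e-06). Pmepa1, a TGF-beta induced inhibitor of Smad2 and Smad3, changed by −0.81 (SE 0.077, adjusted p = 5.24e-06) at 500 mOsm and −1.34 (SE 0.077, adjusted p = 9.87e-08) at 600 mOsm. Hipk2, a nuclear kinase, changed by −0.86 between the intensities (SE 0.074, adjusted p = 3.14e-06). At 600 mOsm the count higher was 1 without control replicate 1 or 600 mOsm replicate 1, and the count lower was 7 without control replicate 1. The count higher at 600 mOsm was 5 with the GC content and length correction, 4 with that and the replicate block, and 1 at an adjusted p under 0.01, and the count lower was 7 with upper quartile factors or at an adjusted p under 0.01. Between the intensities, 3 were higher with the GC content and length correction and 2 with that and the block, and 6 were lower with upper quartile factors or at an adjusted p under 0.01.

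Of 11 E proteins and other factors bound or opposed by Id proteins, 7 were tested. At 500 mOsm 1 was higher and 1 lower, at 600 mOsm 0 were higher by edgeR and 4 lower, and between the intensities 0 were higher and 4 lower, with medians of 0.03, −0.34 and −0.25. Ets1, a transcription factor bound by Id proteins, was at 139, 127 and 131 CPM in control, 248, 237 and 252 at 500 mOsm and 106, 105 and 94.1 at 600 mOsm. It changed by 0.89 (SE 0.057, adjusted p = 1.55e-07), −0.38 (SE 0.057, adjusted p = 0.000287) and −1.27 (SE 0.057, adjusted p = 8.27e-09). Twist2, a bHLH factor of mesenchyme, changed by −0.50 at 500 mOsm (SE 0.114, adjusted p = 0.00525). Of the E proteins themselves, Tcf4 was lower at 600 than at 500 mOsm by −0.41 (adjusted p = 0.0328), with overlapping libraries. Against control Tcf4 passed no test, at 0.38 at 500 mOsm (adjusted p = 0.0516) and −0.04 at 600 mOsm (adjusted p = 0.847). Tcf3 and Tcf12 passed no test in any comparison, with Tcf3 the 1 gene of an unadjusted p under 0.05 for a rise at 600 mOsm. The count higher was 2 at 500 mOsm without control replicate 3, 500 mOsm replicate 3 or 600 mOsm replicate 2, and 1 at 600 mOsm without control replicate 2 or 600 mOsm replicate 2. At 500 mOsm it was also 2 with DESeq2, RLE or upper quartile factors and the GC content and length correction with the replicate block, 3 with that correction alone and 4 with no filter on low counts. At 600 mOsm it was 1 with upper quartile factors, no filter or the GC content and length correction.

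Of 24 TGF-beta induced genes of fibroblasts, all tested, 3 were higher and 8 lower at 500 mOsm, 4 higher and 10 lower at 600 mOsm, and 7 higher and 6 lower between the intensities, with medians of −0.07, −0.17 and 0.00. With upper quartile factors 8 were higher at 600 mOsm. Junb, an AP-1 gene, was at 644, 761 and 702 CPM in control, 1963, 1825 and 1804 at 500 mOsm and 548, 518 and 584 at 600 mOsm, with log2 changes of 1.41 (SE 0.064, adjusted p = 9.34e-09) at 500 mOsm and −1.76 (SE 0.064, adjusted p = 1.37e-09) between the intensities. Col1a2, a chain of type I collagen, was 0.26 (adjusted p = 0.000538) higher than control at 600 mOsm and 0.31 (adjusted p = 0.000176) higher than at 500 mOsm.

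Of 17 BMP induced genes other than the Id genes and inhibitory Smads, 12 were tested. At 500 mOsm 4 were higher and 2 lower, at 600 mOsm 1 higher and 5 lower, and between the intensities 0 higher by edgeR and 6 lower, with medians of 0.27, −0.42 and −0.56. Hes1, a bHLH repressor best known as a Notch target, was at 6.06, 6.23 and 7.57 CPM in control, 47.6, 46.3 and 52.1 at 500 mOsm and 5.73, 7.07 and 7.27 at 600 mOsm. It rose by log2 2.87 at 500 mOsm (SE 0.108, adjusted p = 1.29e-09). Dlx2 changed by −2.80 between the intensities (SE 0.092, adjusted p = 4.24e-10). Runx2, a transcription factor of bone, was at 74.5, 70.1 and 73.0 CPM in control, 71.0, 70.2 and 70.1 at 500 mOsm and 35.4, 37.7 and 32.8 at 600 mOsm, a change of −1.04 (SE 0.059, adjusted p = 8.42e-08) against control. Atoh8, a bHLH factor, was the single gene called higher at 600 mOsm, by 0.37 (adjusted p = 0.0230), and it was lost without control replicate 1 or 3 or 600 mOsm replicate 1 or 3, when the count was 0. That count was also 0 at an adjusted p under 0.01, and 2 with no filter on low counts. Genes such as Grem1 and Smad9 stand in more than one list.

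**Figure D5:**
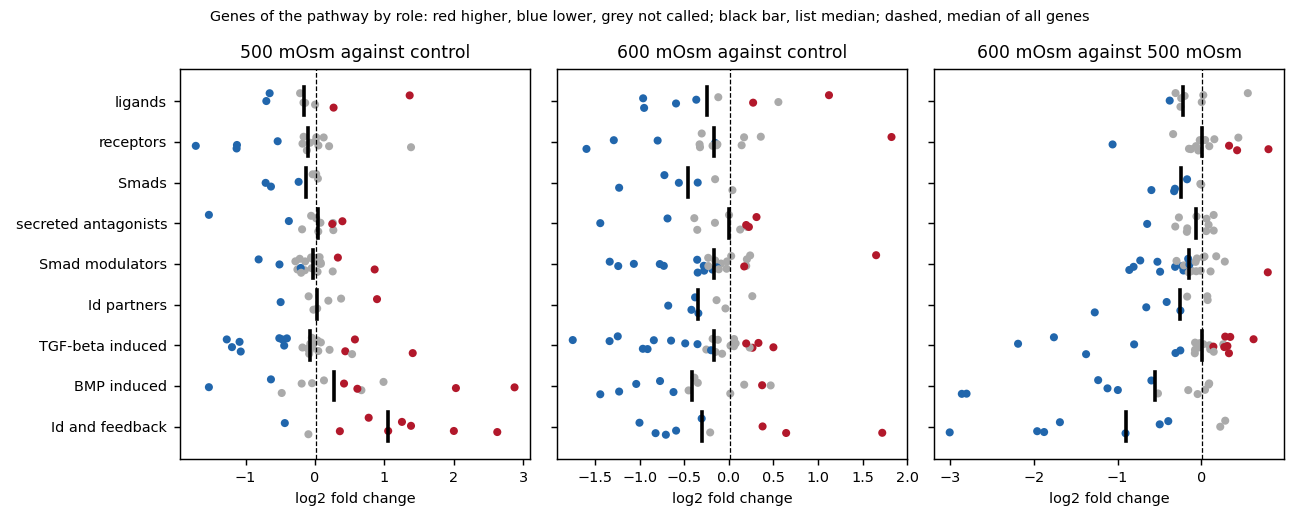
Fitted log2 fold changes of the tested genes of each pathway list in the 3 comparisons, red if called higher, blue if called lower and grey if not called, with a bar at the list median and a dashed line at the median of all genes. The Id and feedback genes had medians of 1.05, −0.31 and −0.91, and the BMP induced genes 0.27, −0.42 and −0.56.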

How the data were processed

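Poly(A) RNA libraries of MEFs were prepared by the authors with a kit that does not mark strand. The submitters' processing notes name CASAVA 1.8, STAR and mm10, and the counting tool is not given in the sources used here. The authors deposited 1 table with the counts of reads on each gene, not normalized, and the FPKM of each library. Its columns of the authors' own fold changes and p-values were not used. Positions matched GENCODE M21 (GRCm38) for 34424 of 34490 shared identifiers.

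In R 4.3.3, the counts were scaled by TMM and compared with edgeR 4.0.16 (quasi-likelihood, filterByExpr, all 9 libraries in one fit, two-sided), with Benjamini-Hochberg adjustment over 13082 genes and a threshold of 0.05. FPKM served to compare levels between genes. Alternatives used DESeq2 1.42.0, limma 3.58.1 on log2 FPKM, other factors and filters, a replicate block and each library left out. The members and lists were chosen with earlier results of these data known. All members are named, with the smallest-p gene per list, direction and comparison, and the 3 genes nearest in pattern to Id1 and to Smad7. Some genes that this rule names are not reported here. Tcf3, Tcf4 and Tcf12 were named for their binding to Id proteins, and Ltbp2, chosen after its values were seen, as the 1 gene of a count. Shared sequence was sought with blastn 2.17.0 (at least 100 bases at 95% identity). The tests were tested on simulated data. Replicates of a treatment differed by more than sampling noise. The biological coefficient of variation shared by all genes was 0.0756, with a median SE of 0.099 for a log2 fold change.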

Additional observations from a re-analysis of the deposited data

Results flagged for a closer look

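For 7 of the 9 members tested, the response to 600 mOsm differed from that to 500 mOsm by edgeR's test of 600 against 500 mOsm in the fit of all 9 libraries, in which 29.1% of all genes were called and 17.2% were lower. The log2 differences, 600 minus 500 mOsm, were −3.00 for Smad7, −1.96 for Tgif1, −1.88 for Skil, −1.69 for Id1, −0.91 for Id2, −0.50 for Ski and −0.40 for Id3. In each of the 7 every 600 mOsm library lay below every 500 mOsm library, which held for 22.3% of all genes tested. Groups of 3 libraries are too small for a test of single outlying libraries.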

How the results depend on the processing

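Of 567 values of single members under alternative settings, 544 kept their direction and their side of the threshold, 19 lost the call, 4 gained it and 0 reversed. Those lost were of Smad6 and Bambi at 500 mOsm against control. Those gained were of Smad6 between the intensities. The count of members lower at 500 mOsm against control, 1 as reported, was 0 with DESeq2, with only the 2 groups compared, with the replicate block, with limma on log2(FPKM + 1) and on log2(FPKM + 0.1), with a correction for GC content and length, with that correction and the replicate block, and at an adjusted p under 0.01. With single libraries left out it ranged from 0 to 1. The count of members higher at 600 than at 500 mOsm, 0 as reported, was 1 with upper quartile factors, with no filter on low counts, and with the GC content and length correction alone or with the block. At an adjusted p under 0.01, 2846 genes were called at 600 mOsm against control and 2352 between the intensities, in place of 4594 and 3810. The GC content and length corrections were chosen after seeing the data and covered 13022 of 13082 genes. Upper quartile factors moved the median of all genes by at most 0.089. Deviations from the treatment means correlated at −0.31 to 0.22 over the 9 pairs of libraries with the same replicate number. For the 18 pairs with different numbers the range was −0.16 to 0.29. Whether replicate numbers pair the libraries cannot be told from these values, since the deviations cancel within each treatment, which constrains the correlations. With the replicate block, Smad6 at 500 mOsm had an adjusted p of 0.0778, and 0.0510 with only the 2 groups compared. The floor of 3 counts limits Id4.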
